A study of Mus musculus with 21 samples.

Results

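The nuclear genes of respiratory complex I were followed through mouse heart tissue after myocardial infarction and through cultured cardiac fibroblasts. Members were all protein-coding genes whose mouse symbol is Nduf followed by a, b, c, s, v or ab and a digit, with assembly factors and pseudogenes left out. The rule found 38 of the 53801 gene identifiers, and all 38 passed the filter on low counts in both experiments. They comprised 7 core subunits, 10 accessory subunits of the matrix arm, 19 accessory subunits of the membrane arm, and 2 genes that carry the symbol only. The latter are Ndufa4, known as a subunit of complex IV, and its paralogue Ndufa4l2, and the remaining 36 genes are called the subunits.

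Complex I, NADH:ubiquinone oxidoreductase, is the entry point of electrons from NADH into the mitochondrial respiratory chain. Its matrix arm passes electrons through a flavin and a row of iron-sulfur clusters to ubiquinone, and its membrane arm, whose core is encoded by mitochondrial DNA, pumps protons that drive ATP synthesis. Heart muscle cells are densely packed with mitochondria, so these genes are strongly transcribed in the myocardium.

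The hearts were 15 RNA-seq libraries from the border zone of the left ventricle at day 7, made from total RNA. Of these, 3 came from sham-operated wild-type mice, 4 from wild-type mice with myocardial infarction (MI), 4 from wild-type mice with MI that received the agent labelled FAPI, and 4 from mice of the FapKO genotype with MI. Fap encodes fibroblast activation protein, a cell-surface protease, and the series title speaks of its inhibition. The compound and dose behind FAPI, the strain, age and sex of the mice and the way the knockout was made were not given in the sources used here. A second experiment held 6 libraries of ventricular fibroblasts kept 7 days in a 5% GelMA gel, a gelatin-based hydrogel. In 3 of them the fibroblasts were alone (3D culture), and in 3 they shared the gel with endothelial cells of heart and lung (co-culture). The co-cultured cells were sorted as CD45- CD31- Pdgfra+ before RNA was taken and the cells cultured alone were not, so the partner cells and the sort cannot be told apart. The fibroblast libraries were made from polyadenylated RNA with a modified Smart-seq2 protocol, and the experiments were not compared with each other.

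Total counts per library ran from 18474138 to 37287355 in the hearts and from 4735337 to 15650221 in the fibroblasts, with 4735337 to 6346015 in the co-cultures. Levels are CPM, counts scaled to the size of the library, after TMM scaling, which sets libraries to one another by the trimmed mean of their gene ratios. Counts of the 38 members made up 6.25% to 7.65% of all counts in sham hearts, 1.82% to 2.55% in MI, 3.15% to 4.40% in FAPI and 4.54% to 5.60% in FapKO. Fap stood at 2.71 to 3.86 CPM in sham, 9.40 to 13.2 in MI, 6.47 to 10.4 in FAPI and 1.79 to 2.36 in FapKO. It was lower in FapKO than in MI by the quasi-likelihood F test of edgeR (log2 fold change -2.36, SE 0.16, adjusted p = 6.94e-08), as the labels require. Every edgeR adjusted p is from that test, with Benjamini-Hochberg adjustment over all genes tested. Markers of heart muscle (16 of 16), macrophages (8 of 8), fibroblasts (8 of 8) and endothelium (7 of 7) were all at 1 CPM or more in each heart. Whether every heart library came from its own animal is not stated in the labels, so p-values reflect only the spread between libraries, which may be in part technical. In bulk tissue, fewer cells of a type and less RNA per cell cannot be told apart.

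The DNA around the RefSeq starts of some members is shown, with and without short words of transcription factors known for nuclear genes of the respiratory chain. Whether these words bear on the joint movement of the subunits in the hearts was not tested. Windows of 250 bases before to 50 after the start came from RefSeq (GRCm38.p6, the same assembly as mm10) and matched 33 of 38 members; those without one included Ndufa2, Ndufa4l2, Ndufb9 and Ndufs1. The words, searched on both strands, were GCGCANGCG for NRF1, CCGGAAG for GABPA, AAGATGGCG for YY1 and TCAAGGTCA for ERR. Each sequence reads 5′ to 3′ on the gene's own strand with the word in capitals. The first pair are core subunits without a capital in these 100 bases before the start. Ndufs8 does hold a GABPA word, which begins 16 bases after its start. The next pair are accessory subunits with an NRF1 word in theirs, and the short stretches were chosen after the words were seen. By GENCODE the genes of the short stretches start 60 (Ndufs6) to 328 (Ndufs7) bases further upstream, so these stretches lie within the annotated gene. Ndufs5 starts 16 bases further upstream there.
Ndufs8, chr19:3912775-3912874, minus strand: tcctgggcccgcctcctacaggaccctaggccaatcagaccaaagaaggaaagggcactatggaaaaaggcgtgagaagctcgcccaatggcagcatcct
Ndufv2, chr17:66101560-66101659, minus strand: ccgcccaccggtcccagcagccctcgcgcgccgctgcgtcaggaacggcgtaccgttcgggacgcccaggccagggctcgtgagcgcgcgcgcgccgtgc
Ndufa11, chr17:56717662-56717761, plus strand: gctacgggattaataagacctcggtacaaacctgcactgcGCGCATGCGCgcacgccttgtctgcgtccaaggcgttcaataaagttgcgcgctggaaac
Ndufs5, chr4:123718187-123718286, minus strand: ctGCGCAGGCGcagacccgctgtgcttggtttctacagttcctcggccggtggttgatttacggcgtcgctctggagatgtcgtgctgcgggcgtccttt
Ndufa8, NRF1 words, chr2:36049339-36049367, minus strand: CGCTTGCGCgtcgctggagaCGCATGCGC
Ndufb4, NRF1 word, chr16:37654372-37654400, minus strand: cctcatatccGCGCAGGCGcagatgtgcg
Ndufs6, NRF1 word, chr13:73328483-73328507, minus strand: gactgctgtgCGCCTGCGCcggcac
Ndufs3, GABPA word, chr2:90904732-90904758, minus strand: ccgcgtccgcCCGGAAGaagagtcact
Ndufs6, YY1 word, chr13:73328433-73328459, minus strand: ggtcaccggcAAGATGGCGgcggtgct
Ndufs7, YY1 word, chr10:80249463-80249491, plus strand: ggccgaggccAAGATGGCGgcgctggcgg

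A gene was counted if any of its windows held the word, and some genes, such as Ndufa5, have several windows. NRF1 words lay in 8 of the 33 members with a window (24.2%), against 7.03% of the 27025 genes with one. These members were Ndufa5, Ndufa6, Ndufa8, Ndufa11, Ndufb4, Ndufb10, Ndufs5 and Ndufs6. In Ndufa11 the word is read on both strands, and the matches overlap. YY1 words lay in 5 members (15.2%, namely Ndufa9, Ndufc1, Ndufs4, Ndufs6 and Ndufs7), against 1.64% of all genes with a window. All 5 stood on the gene's own strand, began 23 to 36 bases after the start and contained the start codon, so the ATG of the word is the ATG of translation. GABPA words lay in 4 members (12.1%; Ndufb6, Ndufb7, Ndufs3 and Ndufs8), against 9.93%, and ERR words in 0%, against 0.466%. Taking the first window of each gene, the members had a median GC content of 59.0% against 52.7% over all genes with a window. The part of GC content in these shares was not tested. A word is a match of letters and does not show that a factor binds.

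The first comparison was MI with sham. Transcripts of 37 of the 38 members fell, and Ndufa4l2 alone did not pass the test in either direction (with total-count scaling, and with GC and length trends removed, it was higher in MI). The median log2 fold change over the members was -2.83, beside 0.14 over all 17064 genes tested, and 32.0% of all genes tested were called lower at an edgeR adjusted p under 0.05. For 37 members every MI heart lay below every sham heart, which was so for 31.1% of all genes. The mean of each subunit in MI was 9.53% (Ndufab1) to 24.4% (Ndufc2) of its sham mean, with a median of 14.0%. The core, matrix arm and membrane arm groups had medians of -2.87, -2.85 and -2.73 (log2), with ranges of -3.19 to -2.81, -3.39 to -2.19 and -3.26 to -2.04. Scaling matters to the direction of all other genes: with scaling to total counts alone, the median of all genes moved to 1.23 and the members' median to -1.76, and the share of higher genes among all calls went from 53.7% to 86.1%. With that scaling too, 37 members were lower.

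**Figure D1:**
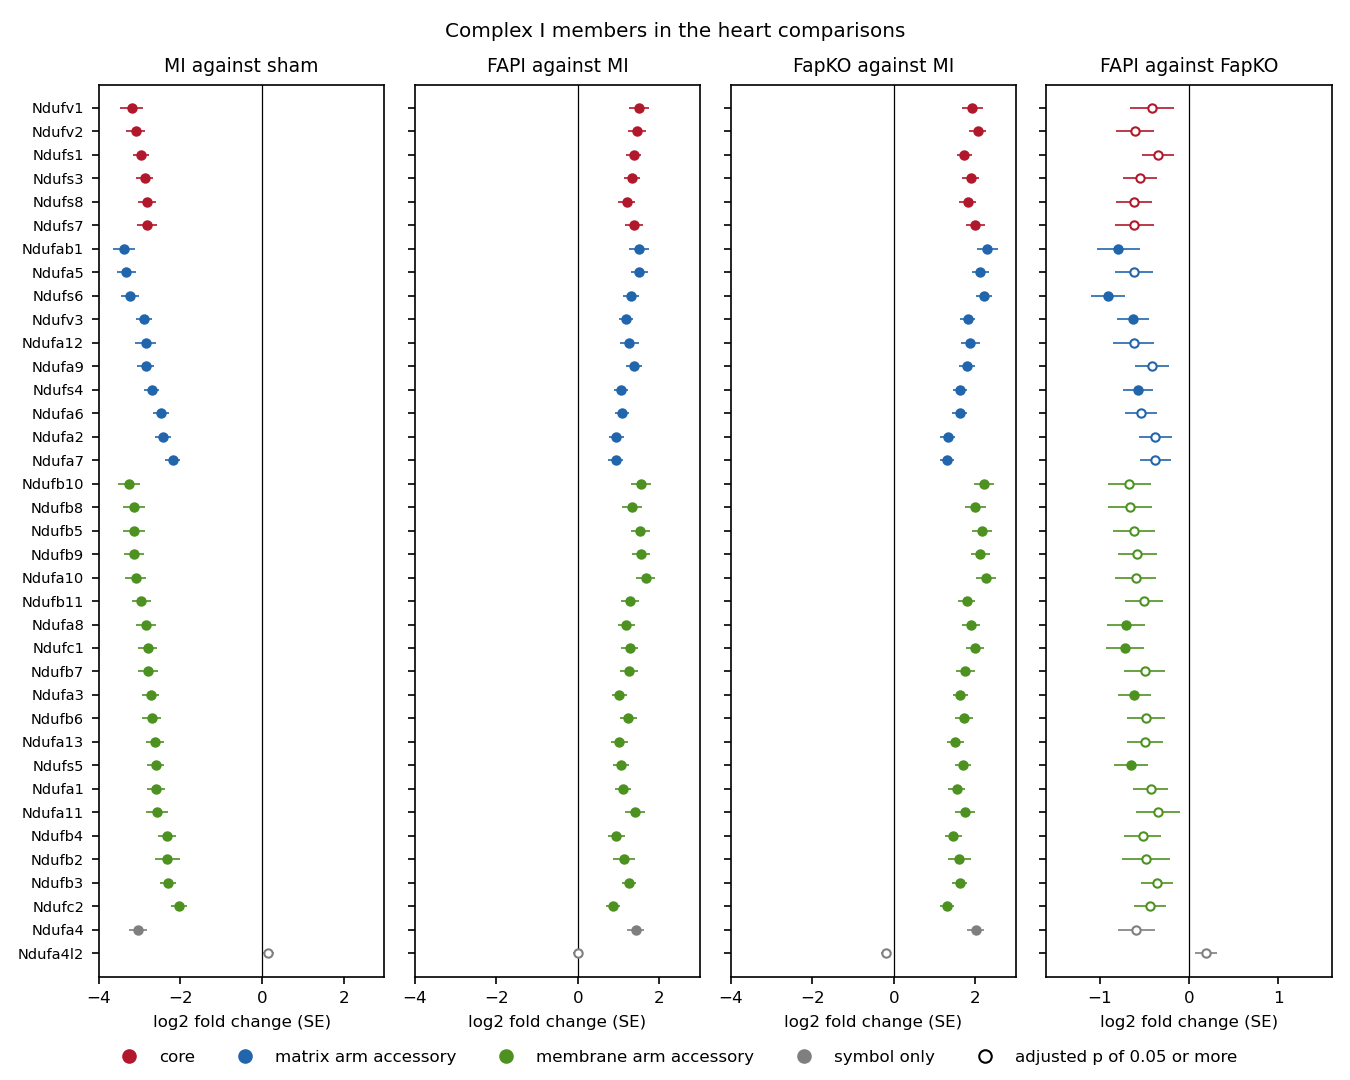
Log2 fold change of 37 members with its SE in 4 heart comparisons with TMM scaling, coloured by role, with open circles for an adjusted p of 0.05 or more. The subunits lie left of 0 in MI against sham, right of 0 in both comparisons with MI and left of 0 in FAPI against FapKO, where 8 circles are filled, while Ndufa4l2 is open in all 4 panels (with total-count scaling it was 1.25 in MI against sham).

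The core subunits that carry the electrons were among them. Ndufs1, the largest subunit and the holder of several iron-sulfur clusters (chr1:63143596-63176833, minus strand), stood at 437, 440.1 and 382 CPM in the sham hearts and at 43.8, 41.5, 76.3 and 52.9 CPM in the MI hearts. Ndufv1, which binds NADH and the flavin (chr19:4007384-4012806, minus strand), stood at 1997, 1826 and 1364 CPM in sham and at 157, 128, 303 and 169 CPM in MI. Ndufv2, its iron-sulfur partner (chr17:66078638-66101559, minus strand), stood at 3698, 3374 and 2923 CPM in sham and at 347, 279.9, 554 and 378 CPM in MI. For these genes no heart of one group reached the range of the other, and the third MI heart was the highest of its group each time. The log2 fold changes were -2.97 for Ndufs1 (SE 0.20, edgeR adjusted p = 4.85e-09), -3.19 for Ndufv1 (SE 0.28, adjusted p = 4.58e-08) and -3.10 for Ndufv2 (SE 0.23, adjusted p = 1.23e-08).

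The subunits at the ubiquinone end of the matrix arm gave the same picture. Ndufs7 (chr10:80249121-80256794, plus strand), which holds the last iron-sulfur cluster before ubiquinone, stood at 2603, 2441 and 2023 CPM in sham and at 298, 240.3, 502 and 306 CPM in MI. Ndufs3 (chr2:90894634-90904827, minus strand), a core subunit of this module without a cluster of its own, stood at 1109.9, 990.0 and 810.2 CPM in sham and at 122, 101, 177 and 129 CPM in MI. Ndufs8 (chr19:3908863-3912774, minus strand), another cluster-bearing subunit, stood at 1985, 1777 and 1409.8 CPM in sham and at 235, 181, 319 and 238 CPM in MI. Sham and MI did not overlap in any of the 3 genes. Log2 fold changes were -2.87 for Ndufs3 (SE 0.21, edgeR adjusted p = 1.11e-08), -2.83 for Ndufs8 (SE 0.22, adjusted p = 1.77e-08) and -2.81 for Ndufs7 (SE 0.24, adjusted p = 4.5e-08).

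**Figure D2:**
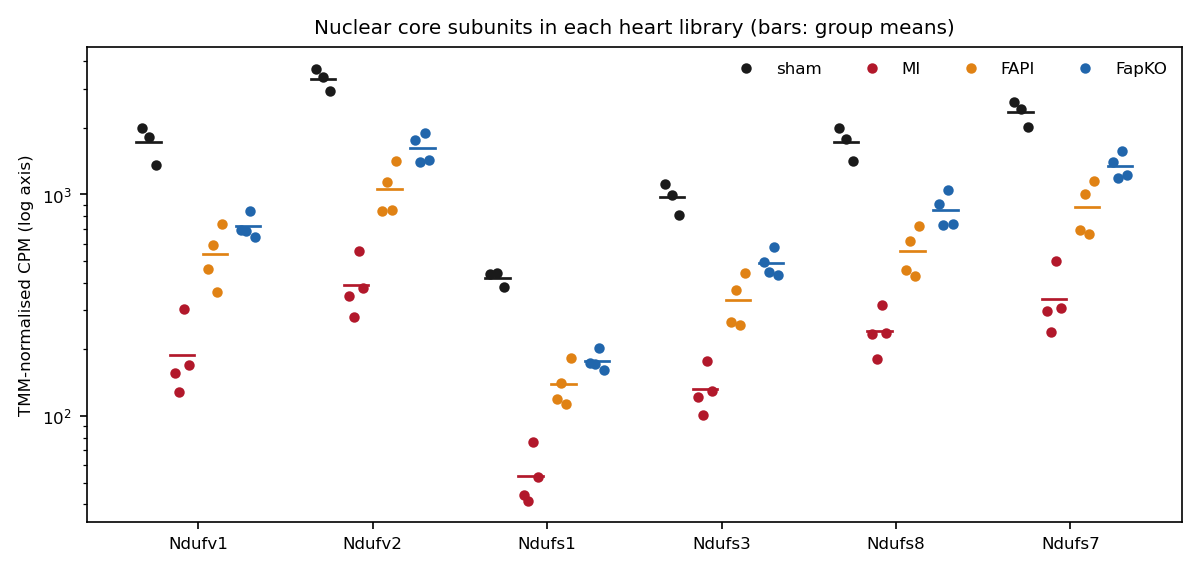
TMM-normalised CPM (log axis) of 6 nuclear core subunits in each of the 15 heart libraries, with bars at the group means. In each gene the sham hearts are highest and the MI hearts lowest, with the FAPI and FapKO hearts between them.

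The largest decreases among the accessory subunits were those of Ndufab1 and Ndufa5, both grouped here with the matrix arm. Their MI means were 9.53% and 9.99% of the sham means, beside 10.4% for Ndufb10 of the membrane arm. Ndufab1, the mitochondrial acyl carrier protein, stood at 3733, 3456 and 2565 CPM in sham and at 296, 225, 453 and 266 CPM in MI. Ndufa5, an accessory subunit of the matrix arm, stood at 7444, 7341 and 5492 CPM in sham and at 637, 528, 942 and 593 CPM in MI. Neither gene had overlapping groups, and the log2 fold changes were -3.39 (SE 0.27, adjusted p = 2e-08) and -3.32 (SE 0.24, adjusted p = 7.59e-09) in edgeR. The smallest decrease among the subunits was that of Ndufc2, a membrane arm subunit, at 1162, 1089 and 1017 CPM in sham and 247, 199, 347 and 270.0 CPM in MI. Its groups were still apart, with a log2 fold change of -2.04 (adjusted p = 1.12e-07, SE 0.19) in edgeR. Since these genes were chosen as the largest and the smallest decrease, the ratio of Ndufab1 to Ndufc2 CPM is given as a description only, 2.52 to 3.21 in sham and 0.983 to 1.31 in MI. Members whose window held any of the searched words had a median of -2.80 (16 genes) and those without one -2.89 (17 genes).

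The genes that carry the symbol without being complex I subunits differed from each other. Ndufa4 (chr6:11900292-11907497, minus strand) stood at 9254, 9362 and 8745 CPM in sham, at 995, 810.0, 1576 and 1045 in MI, at 2341, 3323, 2445 and 3705 in FAPI, and at 5063, 3962, 4744 and 4025 in FapKO. It followed the order of the subunits, with a log2 fold change of -3.04 in MI against sham (SE 0.23, edgeR adjusted p = 1.11e-08). Ndufa4l2 (chr10:127514967-127517154, plus strand), known from other work as a target of hypoxia-inducible factor, stood at 53.5, 47.1 and 46.1 CPM in sham, at 59.3, 54.2, 53.4 and 51.6 in MI, at 59.4, 68.1, 45.2 and 46.6 in FAPI, and at 47.4, 52.7, 46.1 and 46.1 in FapKO. These ranges overlapped, and edgeR gave adjusted p between 0.21 and 0.981 in the 5 comparisons of MI, FAPI and FapKO with sham and of FAPI and FapKO with MI. The size and the call in MI against sham depended on the scaling: beside 0.16 on the log2 scale with TMM (SE 0.13, adjusted p = 0.282), edgeR gave 1.25 with total-count scaling (adjusted p = 6.86e-07) and 0.49 with each library's GC and length trends removed (adjusted p = 0.00174). In FapKO against MI it gave -0.18 with TMM, -0.73 with total-count scaling and -0.43 with the trends removed (adjusted p = 0.00359). In FAPI against sham the trend-removed value was 0.40 (edgeR adjusted p = 0.00964). The ratio of Ndufa4 to Ndufa4l2 CPM in the same library needs no scaling and ran from 173 to 199 in sham, up to 29.5 in MI, 39.4 to 79.5 in FAPI and 75.2 to 107 in FapKO. MI hearts were below all others, and sham hearts above all others.

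**Figure D3:**
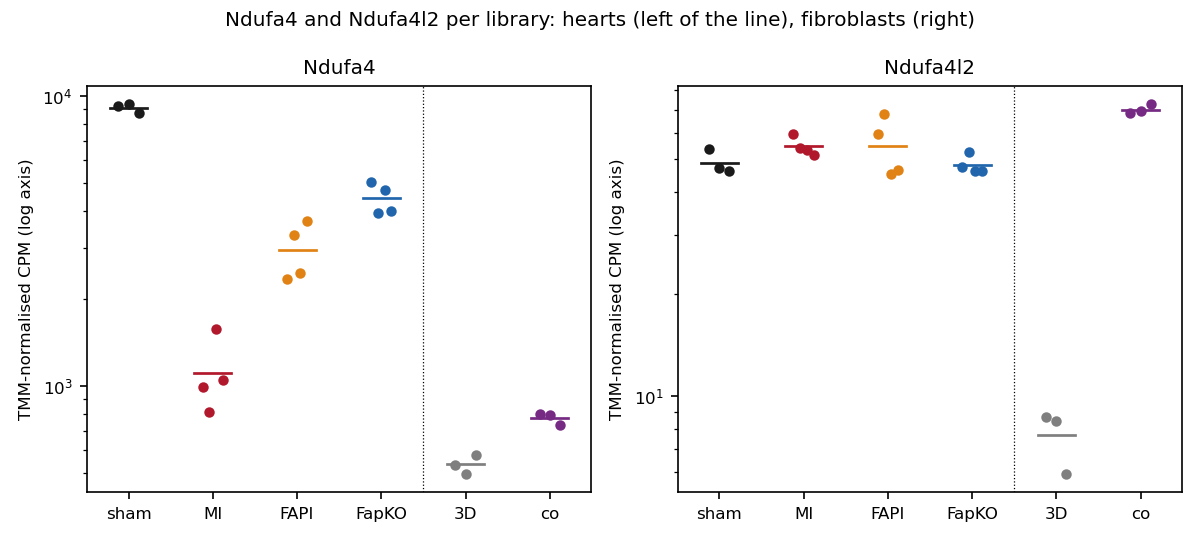
TMM-normalised CPM (log axis) of Ndufa4 and Ndufa4l2 in each library, hearts on the left and fibroblasts on the right of the line, with bars at the group means. Ndufa4 separates the MI hearts from sham, whereas the heart groups overlap in Ndufa4l2, which is far higher in co-cultured than in lone fibroblasts.

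FAPI and FapKO were each compared with MI, to ask how border zone transcripts differ when Fap is targeted. The comparisons share the 4 MI hearts. In FAPI, 37 of the 38 members were higher than in MI, with a median log2 fold change of 1.26 beside -0.03 over all genes tested, and 17.9% of all genes tested were called higher. In FapKO, 37 members were higher, with a median of 1.81 beside -0.08, and 25.0% of all genes were called higher. The exception was Ndufa4l2 in both, which with total-count scaling was lower in both, at -0.41 and -0.73 on the log2 scale, and with GC and length trends removed was lower in FapKO (-0.43) and not called in FAPI (-0.090). Every FAPI heart lay above every MI heart for 36 members, which was so for 15.6% of all genes, and Ndufb2 and Ndufa4l2 overlapped. Every FapKO heart lay above every MI heart for 37 members, against 22.6% of all genes. With total-count scaling the members' medians were 0.84 and 1.27 against all-gene medians of -0.44 and -0.63, and the share of higher genes among all calls went from 60.1% to 14.6% in FAPI and from 49.1% to 16.6% in FapKO.

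Core subunits of the FAPI and FapKO hearts lay between sham and MI. Ndufs1 stood at 119, 142, 113 and 182 CPM in FAPI and at 173, 172, 204 and 161 CPM in FapKO. Ndufv1 stood at 460.2, 591, 363 and 732 CPM in FAPI and at 694, 687, 843 and 645 CPM in FapKO. Ndufv2 stood at 845, 1143, 854 and 1410.0 CPM in FAPI and at 1755, 1396, 1888 and 1434 CPM in FapKO. All of these hearts were above the MI hearts and below the sham hearts, whereas FAPI and FapKO overlapped in all 3 genes. FAPI hearts 2 and 4 were the higher ones of their group in each gene. Ndufs3 stood at 265, 369, 258 and 440.5 CPM in FAPI and at 496, 447, 580.1 and 433 CPM in FapKO. Ndufs7 stood at 693, 1008, 663 and 1148 CPM in FAPI and at 1396, 1185, 1566 and 1228 CPM in FapKO. Ndufs8 stood at 455, 617, 431 and 724 CPM in FAPI and at 905, 726, 1053 and 738 CPM in FapKO. None of these 3 genes overlapped with MI, and for Ndufs7 and Ndufs8 every FAPI heart was below every FapKO heart. Against MI the core log2 fold changes ran from 1.20 (Ndufs8, SE 0.20) to 1.50 (Ndufv1, SE 0.25) in FAPI and from 1.73 (Ndufs1, SE 0.19) to 2.05 (Ndufv2, SE 0.22) in FapKO, and all 7 passed in both by edgeR.

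Of the other members, Ndufa10, a membrane arm subunit with a kinase-like fold, had the largest rise in FAPI, at 173, 147, 333 and 191 CPM in MI and 572, 768, 475 and 862 CPM in FAPI. Its FapKO values were 1015, 952, 1177 and 914 CPM. Groups were apart from MI in both, with log2 fold changes of 1.66 (SE 0.24, adjusted p = 0.000183) and 2.26 (SE 0.24, adjusted p = 2.02e-06) in edgeR. Ndufb9, a membrane arm subunit that binds the acyl carrier protein, stood at 385, 337, 683 and 397 CPM in MI and at 1076, 1491, 983 and 1703 CPM in FAPI, a log2 fold change of 1.54 (edgeR adjusted p = 0.000216, SE 0.23). That acyl carrier protein, Ndufab1, stood at 1644, 1327, 1870.1 and 1239 CPM in FapKO and had the largest rise there, 2.29 (SE 0.25, edgeR adjusted p = 2.48e-06). The smallest rises among the subunits were those of Ndufc2 in FAPI and of Ndufa7 in FapKO. Ndufc2 stood at 372, 489.8, 436 and 642 CPM in FAPI, a log2 fold change of 0.87 (edgeR adjusted p = 0.00191, SE 0.18). Ndufa7, a small matrix arm subunit, stood at 562, 434, 606 and 479.7 CPM in MI and at 1359, 1268, 1433 and 1072 CPM in FapKO, a change of 1.30 (SE 0.18, edgeR adjusted p = 1.81e-05). The core, matrix arm and membrane arm medians were close to each other in FAPI (1.38, 1.22 and 1.25) and in FapKO (1.89, 1.81 and 1.74). Counted as a share of the sham mean, the subunits stood at 26.2% (Ndufs6) to 48.3% (Ndufb3) in FAPI, with a median of 33.3%, and at 41.5% (Ndufv1) to 62.1% (Ndufb3) in FapKO, with a median of 49.8%.

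Several lists of cell type markers moved with the groups. Endothelial markers differed less, with a mean log2 CPM of 4.57 in sham, 4.24 in MI, 4.33 in FAPI and 4.66 in FapKO. Of these 7 markers, 3 were lower in MI than in sham. Against MI, 1 was lower in FAPI and 3 were higher in FapKO. Mural cell markers were split, with 3 of 4 higher and 1 lower in MI than in sham. In FAPI and in FapKO, 3 of 4 were lower than in MI and 1 was higher. The mean log2 CPM of 16 cardiomyocyte markers was 11.37 ± 0.08 in sham (SD, n = 3), 8.52 ± 0.62 in MI (n = 4), 10.21 ± 0.40 in FAPI (n = 4) and 10.68 ± 0.14 in FapKO (n = 4), and that of the 36 subunits was 11.06 ± 0.24, 8.24 ± 0.35, 9.50 ± 0.36 and 10.08 ± 0.19. All 16 of these markers were lower in MI than in sham, with a median of -3.15 (log2), and all 16 were higher than in MI in FAPI (1.67) and FapKO (2.31). Macrophage markers summed to 1858 to 2091 CPM in sham, 6853 to 9630 in MI, 4480 to 8182 in FAPI and 2733 to 5298 in FapKO. Fibroblast markers summed to 3471 to 4032, 14852 to 21415, 8310 to 13489 and 7808 to 8888 CPM. Of the macrophage markers, 5 of 8 were lower than in MI in FAPI (median -0.60) and 8 of 8 in FapKO (-1.26). Of the fibroblast markers, only 3 of 8 were lower in FAPI (-0.31) and 6 of 8 in FapKO (-0.81). The fibroblast sums of FAPI and MI were apart, but their mean log2 CPM overlapped. The highest FAPI heart, at 9.04, lay within the MI range. Neutrophil markers were higher in MI than in sham for 5 of 5 (median 3.43) and lower than in MI for 5 of 5 in FAPI (-2.62) and in FapKO (-3.04). B cell markers were higher in MI for 4 of 4 (2.09), lower than in MI for 4 of 4 in FAPI (-2.10) and for 1 of 4 in FapKO (-0.75). Adipocyte markers were split: in MI 3 of 5 were higher than in sham and 2 lower. In FAPI 3 of 5 were lower than in MI and 1 was higher (-3.23). Their summed CPM was 1317 to 2167 in MI and 1774 to 2687 in FAPI. In FapKO 1 of 5 was lower than in MI and 2 were higher (-1.11), and 4 of 5 were lower in FAPI than in FapKO (-2.03). The subunits summed to 80.7 to 99.2 CPM per 100 CPM of cardiomyocyte markers in sham, 51.2 to 93.9 in MI, 60.4 to 69.5 in FAPI and 71.8 to 87.6 in FapKO. The mean log2 CPM of the subunits minus that of the markers was -0.48 to -0.16 in sham and -0.71 to 0.080 in MI. It was -0.76 to -0.66 in FAPI and -0.69 to -0.54 in FapKO. By this measure every FAPI and FapKO heart was below every sham heart, whereas by the sums FapKO and sham overlapped. With each heart's cardiomyocyte marker level added as a covariate, MI against sham had 6 lower members (Ndufs6, Ndufs4, Ndufa5, Ndufv3, Ndufs1 and Ndufa4; median -0.96), against 1.81% of all genes. The same edgeR fit called 0 members in FAPI against MI, where 1 of all 17064 genes was called higher, 0 members had an unadjusted p under 0.05 and their median was 0.14. It called 0 members in FapKO against MI, where 13 of all genes were called higher, 4 members had an unadjusted p under 0.05 and their median was 0.39. Since almost no gene was called in these 2 fits, the counts of 0 say nothing particular about the members. The marker level itself separates MI from the other groups, so the covariate and the groups cannot be fully told apart.

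**Figure D4:**
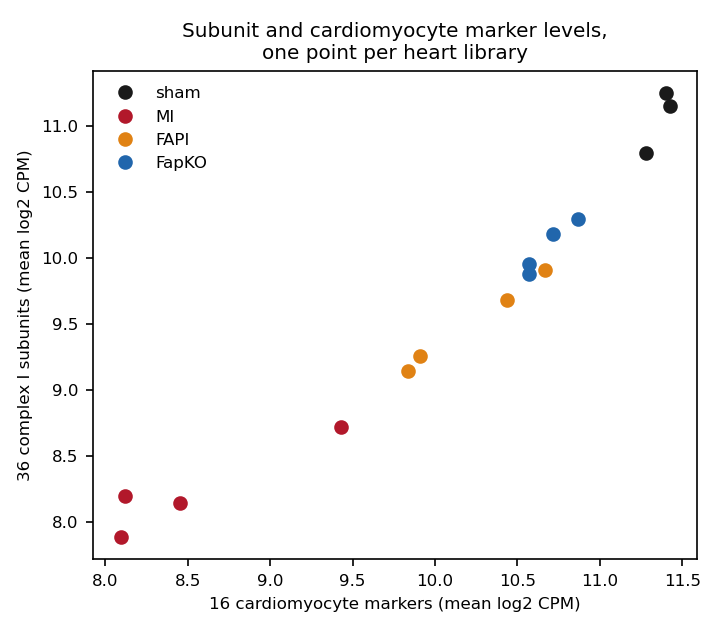
Mean log2 CPM of the 36 subunits against that of the 16 cardiomyocyte markers, one point per heart library. The MI hearts sit lowest on both axes, and the FAPI and FapKO hearts sit between MI and sham.

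The order of hearts within a group was also shared between the subunits. The third MI heart was the highest of the MI hearts for 36 of 36 subunits and also had the highest cardiomyocyte marker level of that group, 9.43 against 8.09 to 8.45 (log2 CPM). The second MI heart was the lowest for 33. In the FAPI group heart 4 was highest for 33 subunits and heart 3 lowest for 29, and their cardiomyocyte marker levels were 10.67 and 9.84. The third sham heart was the lowest sham heart for 34 subunits, at a marker level of 11.28 against 11.40 and 11.42. The 36 subunits are therefore not 36 separate observations of a heart.

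FAPI was compared directly with FapKO. Lower calls in FAPI were made for 8 of 38 members, against 6.12% of all genes tested, and none was called higher. The 8 were the matrix arm subunits Ndufs6, Ndufab1, Ndufv3 and Ndufs4 and the membrane arm subunits Ndufc1, Ndufa8, Ndufs5 and Ndufa3. The members' median was -0.57 (log2) beside 0.02 over all genes, 31 members had an unadjusted p under 0.05 on the lower side, and for 16 every FAPI heart was below every FapKO heart, as for 8.88% of all genes. None of the 7 core subunits passed the edgeR test, while 5 had an unadjusted p under 0.05, 5 passed with DESeq2 and 1 with limma-voom. The count rests on single hearts: it was 25 without FAPI replicate 4, where 8.05% of all genes were lower. It was 1 without FAPI replicate 1, FAPI replicate 3, FapKO replicate 1 or FapKO replicate 3, where 2.91% to 3.90% of all genes were lower, shares that 1 of 38 does not exceed. It was 22 with DESeq2 and 9 with limma-voom, beside 7.89% and 6.35% of all genes. The cardiomyocyte markers had a median of -0.40, with 3 of 16 lower, and with their level as a covariate 1 member (Ndufs6) was called, beside 3.43% of all genes. Total-count scaling gave 17 lower members, beside 4.37% of all genes, and an all-gene median of 0.16. That scaling moved the share of higher genes among all calls from 53.5% to 67.9%.

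Ndufs6, a zinc-binding subunit of the matrix arm, had the largest difference, at 743, 1024, 620.2 and 1043 CPM in FAPI and 1829, 1463, 1729 and 1410.0 CPM in FapKO. The groups did not overlap (log2 fold change -0.91, SE 0.19, edgeR adjusted p = 0.0059). Ndufab1 stood at 681, 986, 637 and 1202 CPM in FAPI, below the FapKO hearts given above, with a log2 fold change of -0.79 (edgeR adjusted p = 0.0383, SE 0.24). Ndufs4, needed for the NADH-oxidising tip of the complex to be attached stably, differed by -0.57 (SE 0.17, edgeR adjusted p = 0.0345). At the other end, Ndufa11, a transmembrane subunit, stood at 1543, 2231, 1629 and 3084 CPM in FAPI and at 2917, 2575, 3070.3 and 2230.4 CPM in FapKO. These overlapped, with a log2 fold change of -0.35 (edgeR adjusted p = 0.368, SE 0.25). Ndufa4l2 gave 0.19 (SE 0.12, adjusted p = 0.304) and Ndufa4 -0.59 (SE 0.20, adjusted p = 0.0656) in edgeR.

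Both groups were below sham. Against the 3 sham hearts that these comparisons share, FAPI had 37 lower members (median -1.59 beside 0.09 over all genes; 26.5% of all genes called lower) and FapKO 36 (median -1.01 beside 0.05; 20.3% called lower). Every heart was below every sham heart for 37 members in FAPI, as for 27.5% of all genes, and for 37 members in FapKO, as for 23.7%. Ndufs6 (3569, 3549 and 2686 CPM in sham) and Ndufab1 had the largest differences in FAPI, at -1.93 (SE 0.21, adjusted p = 1.54e-06) and -1.89 (SE 0.26, adjusted p = 1.64e-05) in edgeR. In FapKO they were Ndufv1 and Ndufs1, at -1.27 (SE 0.26, adjusted p = 0.00161) and -1.24 (SE 0.19, adjusted p = 0.000189) in edgeR. Ndufb3, a membrane arm subunit, came closest to sham among the called subunits in both, at 1297, 1276 and 1035 CPM in sham, 491, 640.4, 478 and 715 in FAPI and 754, 685, 857 and 692 in FapKO. Its groups stayed apart from sham (-1.05 and -0.69 on the log2 scale, edgeR adjusted p of 0.000205 and 0.00907). Ndufb2, another membrane arm subunit, stood at 439.8, 437 and 448 CPM in sham and at 241, 208, 367 and 269 CPM in FapKO, and missed the threshold with an edgeR adjusted p = 0.0628 although the groups were apart. Cardiomyocyte markers were lower than in sham for 10 of 16 in FAPI and 7 of 16 in FapKO, with medians of -1.14 and -0.67, and with their level as a covariate 34 and 29 members were called lower, against 13.2% and 12.7% of all genes. Total-count scaling moved the all-gene medians to 0.77 and 0.59 and the members' medians to -0.94 and -0.47, and the share of higher genes among all calls from 52.4% to 86.8% and from 48.7% to 91.7%.

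Complex I needs assembly factors that are absent from the finished enzyme, and 15 of them were followed. All 15 were lower in MI than in sham (median -1.82), and all 15 were higher than in MI in FAPI (0.71) and in FapKO (1.10). The clearest were Ndufaf5, which modifies a matrix arm subunit, at -2.77 in MI against sham (SE 0.17, adjusted p = 2.5e-09), and Foxred1, at -2.42 (SE 0.17, adjusted p = 6.75e-09) in edgeR. In FAPI against FapKO 5 of 15 were lower (median -0.38), led by Ndufaf5 at -0.67 (adjusted p = 0.0113) and Ndufaf8 at -0.57 (adjusted p = 0.0204) in edgeR. The core subunits of the membrane arm are encoded by mitochondrial DNA, and 6 of the 7 passed the filter; mt-Nd4l did not. In MI against sham 5 of the 6 were lower and 1, mt-Nd3, was higher, and all 6 were higher than in MI in FAPI (median 1.55) and FapKO (1.94). mt-Nd6, the only one encoded on the other strand of that genome, stood at 6200.4, 6488 and 6761 CPM in sham, 553, 625, 1276 and 820.4 in MI, 1752, 2221, 1701 and 2642 in FAPI and 2759, 2694, 3284 and 2818 in FapKO. This was the order of the nuclear subunits. mt-Nd3 stood apart from it, at 20.3, 29.9 and 44.2 CPM in sham, 36.6, 43.4, 102 and 68.5 in MI, 181, 254, 337 and 246 in FAPI and 255, 283, 227 and 375 in FapKO. Its sham and MI hearts overlapped, and both other groups were above sham, by 3.02 and 3.18 on the log2 scale. None of the 6 passed the edgeR test in FAPI against FapKO, where 1 had an unadjusted p under 0.05 and DESeq2 and limma-voom called 0.

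In the fibroblasts, co-culture with endothelial cells was compared with 3D culture alone. Higher in co-culture were 29 of the 38 members, against 30.3% of the 12293 genes tested, and 1 was lower, Ndufs1, against 29.5%. The median over the members was 0.57 (log2) beside -0.06 over all genes, and for 30 members every co-culture library was above every 3D culture library, as for 33.3% of all genes. The mean log2 CPM of the subunits was 7.97 ± 0.03 in 3D culture and 8.61 ± 0.06 in co-culture (SD, n = 3 each). By role, 6 of 7 core subunits, 5 of 10 matrix arm subunits, 16 of 19 membrane arm subunits and both genes with the symbol only were higher. The count is sensitive to scaling and to technical trends: total-count scaling gave 16 higher and 3 lower, with an all-gene median of -0.41 and a members' median of 0.23. The share of higher genes among all calls went from 50.7% to 32.7%. Removing each library's trend with GC content and transcript length gave 16 higher and 7 lower and a median of 0.17, where 24.3% of all genes were higher and 24.6% lower. The subunits are short genes, with a median transcript length of 1025.5 bases against 3218.5 over all genes.

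Among all these settings 10 members stayed higher (Ndufa4l2, Ndufa6, Ndufb2, Ndufb4, Ndufb8, Ndufb11, Ndufc2, Ndufs5, Ndufs6 and Ndufv3) and Ndufs1 stayed lower. Ndufa4l2 had the largest difference, at 8.67, 8.44 and 5.91 CPM in 3D culture and 68.4, 69.3 and 72.6 CPM in co-culture. The groups lay far apart, 9.16-fold, with a log2 fold change of 3.20 (adjusted p = 1.64e-06, SE 0.17) in edgeR, 2.85 with total-count scaling and 2.17 with the trends removed. Ndufa4 stood at 534, 497 and 578 CPM in 3D culture and at 797, 792 and 732 CPM in co-culture, a difference of 0.53 (SE 0.11, edgeR adjusted p = 0.00246). The ratio of Ndufa4 to Ndufa4l2 was 58.8 to 97.9 in 3D culture and 10.1 to 11.7 in co-culture. Ndufa6, a matrix arm subunit that binds the acyl carrier protein, stood at 233, 232 and 239 CPM in 3D culture and at 725, 746 and 706 CPM in co-culture. It had the largest difference among the subunits, 1.63 (SE 0.10, edgeR adjusted p = 2.67e-06).

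Core subunits differed in size and sign. Ndufs7 stood at 171, 144 and 177 CPM in 3D culture and 337, 357 and 318 CPM in co-culture, and Ndufs8 at 226, 199 and 228 against 443, 418 and 391 CPM. Both were apart, by 1.04 (SE 0.12, adjusted p = 8.97e-05) and 0.94 (SE 0.11, adjusted p = 0.000106) in edgeR, but neither passed with the GC and length trends removed, at 0.025 and 0.088. Ndufs3 (111, 113 and 103 against 156, 173 and 156 CPM) and Ndufv1 (104, 83.1 and 100 against 134, 141 and 147 CPM) differed by 0.57 and 0.56, and each turned below 0 with the GC and length trends removed. Ndufv2 stood at 249.7, 235 and 239.9 CPM in 3D culture and 319, 309 and 275 CPM in co-culture, and its difference of 0.32 (SE 0.10, edgeR adjusted p = 0.0258) was -0.033 with total-count scaling. Ndufs1 ran the other way, at 45.8, 45.6 and 47 CPM in 3D culture and 27.1, 31.5 and 29.3 CPM in co-culture. Its groups did not overlap, with a log2 fold change of -0.65 (edgeR adjusted p = 0.00118, SE 0.11). The ratio of Ndufs1 to Ndufs7 in the same library was 0.266 to 0.317 in 3D culture and 0.0806 to 0.0922 in co-culture. Its exons overlap antisense transcripts (Ino80dos over 489 bases and Eef1b2 over 9), and as the strand setting of the counting is not given, these reads cannot be told apart. Without 3D culture replicate 2, 3 members were lower in place of 1. Ndufb3 stood at 182, 145 and 177 CPM in 3D culture and at 143, 154 and 149 CPM in co-culture, with overlapping groups (-0.18, SE 0.12, edgeR adjusted p = 0.224).

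**Figure D5:**
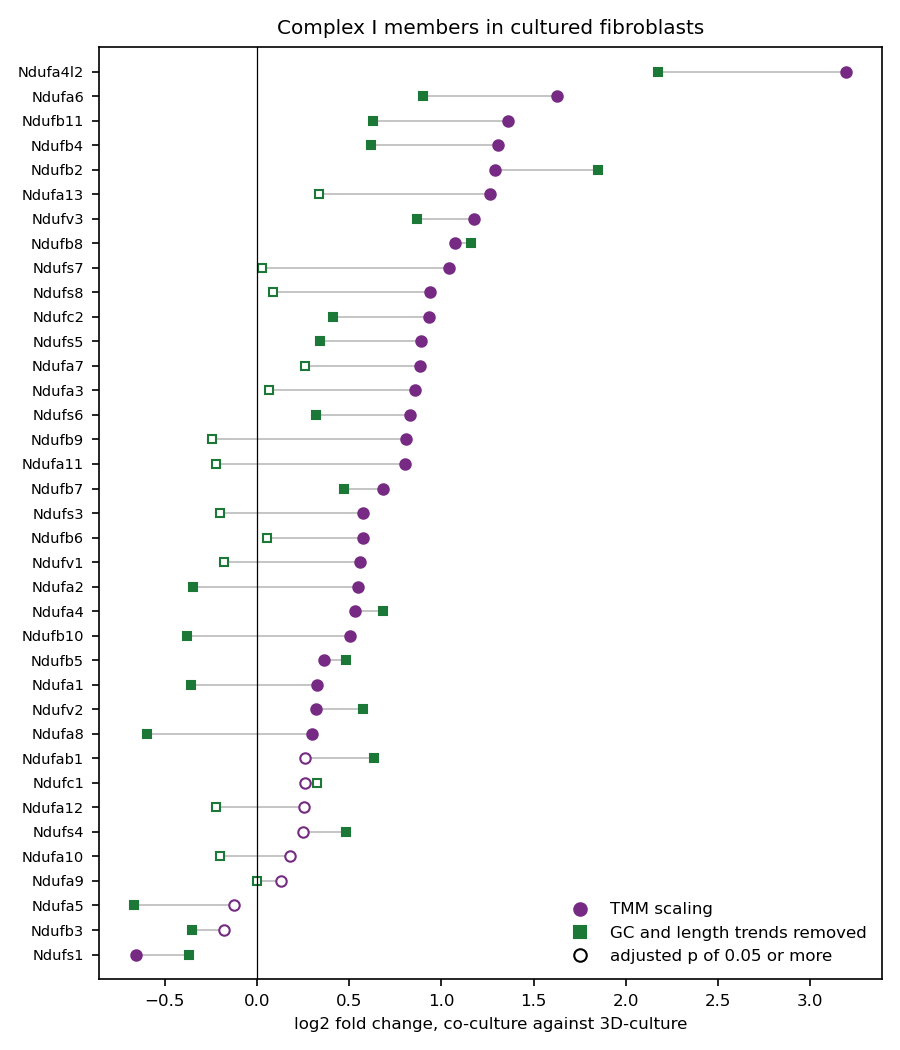
Log2 fold change of 37 members between co-culture and 3D culture of fibroblasts, with TMM scaling (circles) and with GC and length trends removed (squares), where open symbols have an adjusted p of 0.05 or more. Ndufa4l2 stands far to the right in both, at 3.20 and 2.17, and Ndufs1 lies left of 0 in both.

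The fibroblast identity and the other cells in these libraries were read from markers. All 8 fibroblast markers were at 1 CPM or more in every library, and in co-culture 4 of 8 were higher and 1 lower. Their mean log2 CPM was 8.21 ± 0.07 in 3D culture and 8.97 ± 0.04 (SD, n = 3 each) in co-culture. Their sums overlapped, at 4693, 10719 and 4925 CPM in 3D culture and 7507 to 7880 CPM in co-culture. Of the 16 cardiomyocyte markers 8 had no count in any co-culture library and 3 had none in any 3D culture library, which were sequenced more deeply. Endothelial markers summed to 11.2 to 13.7 CPM in 3D culture and 9.25 to 14.3 CPM in co-culture, and macrophage markers to 793.5 to 1316 and 369 to 485 CPM, with 8 of 8 macrophage markers lower in co-culture. Adipocyte markers summed to 117 to 118 CPM in 3D culture and 610 to 736 in co-culture, and mural cell markers to 1485 to 2518 and 556 to 656 CPM. The mural list was split: of its 4 genes 2 were tested, 1 higher in co-culture (0.87) and 1 lower (-2.06). Whether other cells had a part in the members' differences was not tested. Of the 15 assembly factors 3 were higher and 2 lower in co-culture, shares below the 30.3% and 29.5% of all genes, with a median of -0.06. Ndufaf3 (1.39) and Ndufaf8 (1.17) were the clearest of the list. Of the 6 mitochondrially encoded subunits tested, 5 were higher, with mt-Nd2 at 1.32 and mt-Nd4 at 0.66.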

How the data were processed

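RNA-seq gene counts of 21 mouse libraries were used as deposited. The authors aligned reads of 150 bases with STAR and counted them with HTSeq on mm10, per the submitters' processing notes; for versions, strand setting and multi-mapping reads the entry is: not given in the sources used here. A series-wide table also held 6 columns of samples not listed here, which were not used. The members and gene lists were chosen with earlier results of these data known. Gene symbols and coordinates came from GENCODE M21 (GRCm38).

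The 15 hearts and the 6 fibroblast libraries were fitted separately with edgeR 4.0.16 (R 4.3.3): filterByExpr, TMM factors, quasi-likelihood F test, Benjamini-Hochberg adjustment over all genes at 0.05. SE was taken as the size of the log2 fold change over the root of its F statistic. Values per library are given for the core subunits (1 of them is counted but not reported by name here), Ndufa4, Ndufa4l2 and the 2 highest and 2 lowest changes of each comparison. Levels are means of log2 CPM with a pseudocount of 0.5. The code was tested on simulated data. Alternatives used DESeq2 1.42.0, limma 3.58.1, other scalings, filters, covariates and left-out libraries. Removal of GC and length trends and equal depth in the fibroblasts were chosen after seeing the data. The main fits did not pair libraries by replicate number. Deviations of same-numbered hearts correlated from -0.63 to 0.52 over 21 pairs (median 0.10), and those of other hearts from -0.71 to 0.80 over 63 pairs (median 0.027). In the fibroblasts these were -0.65 to 0.43 over 3 pairs and -0.48 to 0.62 over 6 pairs. The ranges overlap, so they do not show whether the libraries were paired. Tables were made in Python 3.11.15 with pandas 2.3.3 and numpy 2.4.6, and figures with matplotlib 3.10.9.

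Exons of 15 members overlap antisense exons and 3 overlap exons on the same strand, so their counts may include other genes' reads. Counting error was not separated from the spread between libraries. It is not small at the lowest counts of a member in any library, 106 for Ndufa4l2 and 112 for Ndufs1.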

Additional observations from a re-analysis of the deposited data

How the results depend on the processing

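In MI against sham, FAPI against MI and FapKO against MI the number of members called stayed within 1.5 times the reported 37 under every alternative run except the cardiomyocyte marker covariate, which gave 6, 0 and 0. In FAPI against FapKO, where 8 were lower, total-count scaling gave 17 (4.37% of all genes lower). The count was 19 without a filter on low counts (3.51%) and 22 with DESeq2 (7.89%). It was 2 with the replicate block (5.44%, which 2 of 38 does not exceed) and 1 with the marker covariate (3.43%). With a log2 fold change of at least 1 required it was 0, and it ran from 1 to 25 with 1 library left out. In FapKO against sham 20 members were past a log2 fold change of 1. In co-culture, where 29 were higher and 1 lower, the counts were 16 and 3 with total-count scaling, 16 and 7 with GC and length trends removed and 9 and 0 with a log2 fold change of at least 1 required, and the lower count ran from 1 to 3 with 1 library left out. The replicate block gave 37 members in each of the other heart comparisons and 26 higher and 1 lower in co-culture, so it changed no other call count by over 1.5 times. Over 74 results for single members and 1339 alternatives, 1235 kept direction and side of the threshold, 48 lost the threshold, 34 gained it and 22 turned in direction. Most of the 22 concern Ndufa4l2, whose values lie near 0. In FAPI against MI its 0.01 turned to -0.41 with total-count scaling, -0.0016 with a filter of 1 CPM in 3 libraries, -0.011 with limma-voom, -0.0077 with the replicate block, -0.090 with GC and length trends removed and -0.028 with only the 2 groups, and ran from -0.12 to 0.087 with 1 library left out. In FapKO against sham its -0.02 turned to 0.52 with total-count scaling, 0.025 without a filter on low counts, 0.015 with the replicate block, 0.060 with the trends removed and 0.029 with only the 2 groups, and ran from -0.071 to 0.046 with 1 library left out. With the marker covariate, Ndufc2 (-0.12) and Ndufv1 (-0.018) turned in FAPI against MI and Ndufa11 (0.0086) in FAPI against FapKO. In co-culture, Ndufs3 (-0.20) and Ndufv1 (-0.18) turned with the trends removed and Ndufv2 (-0.033) with total-count scaling. The cause was not tested. Without the most abundant genes Ndufa4 was not tested, since it is one of them.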

Other observations

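Ndufb1, the remaining membrane arm subunit, is represented in the annotation by Ndufb1-ps, which GENCODE types as a bidirectional promoter lncRNA and which the rule therefore leaves out. It was counted at 13442 to 45842 reads in the hearts and 2472 to 7347 in the fibroblasts. Its level was 2722, 2697 and 2670.0 CPM in sham, 518, 425, 704 and 518 in MI, 954, 1213, 1045 and 1324 in FAPI, and 1622, 1372, 1617 and 1510.1 in FapKO. The sham and MI hearts did not overlap, and the log2 fold change was -2.32 (SE 0.17, edgeR adjusted p = 8.29e-09). FAPI and FapKO were above MI by 1.07 and 1.50 on the log2 scale. In fibroblasts it stood at 373, 263 and 394 CPM in 3D culture and 599, 691 and 669 CPM in co-culture, a log2 fold change of 0.93 (edgeR adjusted p = 0.00102, SE 0.16). Its exons overlap antisense exons of Cpsf2 over 147 bases.

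Across the 36 subunits, the log2 fold change in MI against sham had a Pearson correlation of 0.33 and a Spearman correlation of 0.31 with that in co-culture against 3D culture. The genes are not independent replicates, and the experiments share no library. The co-culture change had a Pearson correlation of 0.42 and a Spearman correlation of 0.39 with GC content, and -0.11 and -0.11 with log2 transcript length. The change in MI had -0.034 and -0.052 with GC content, and -0.32 and -0.38 with log2 transcript length.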
